A study of Mus musculus with 6 samples.

Results

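The guanylate-binding protein genes were taken as all non-control probes whose gene name in the scanner files equalled 1 of 8 listed names, which gave 9 probes of 41174 and 8 gene names of 27962. Several of these names are old: Mpa2 is now Gbp4, the name Gbp4 on the array is now Gbp3, Gbp1 is Gbp2b, 9830147J24Rik is Gbp7, 5830443L24Rik is Gbp8 and BC057170 is Gbp9, and current symbols are used from here on. The genes were chosen by their processed signal in BRG1 siRNA against control siRNA arrays, the same contrast shown here, so their own differences are given as a description, with no test. Embryonic stem (ES) cells from F1 mice of 129 and C57BL/6 parents were cultured for 48 h with an siRNA against BRG1 (3 arrays) or with a control siRNA (3 arrays), and Cy3-labelled cRNA from 500 ng of RNA was measured on one-colour Agilent arrays. BRG1, encoded by Smarca4, is an ATPase of the SWI/SNF complexes that remodel nucleosomes. The labels name no cell line and no agent besides the siRNAs, interferon included, and leave unsaid whether the replicates are separate cultures, so the errors and p-values cover the array-to-array spread alone, which can be technical. Precision is limited by the 3 arrays in each group.

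Guanylate-binding proteins are large GTPases of the dynamin superfamily that interferon-gamma induces strongly in many cell types. In infected mouse cells they assemble on the membranes of vacuoles that hold bacteria or parasites and on free bacteria, where they break the membrane and promote inflammasome activation. The interferon-gamma receptor signals through JAK kinases to gamma-activated sites in DNA, and the induced factor IRF1 acts at interferon-stimulated response elements in the promoters of these genes. The mouse genes lie in 2 clusters, 1 on chromosome 3 and 1 on chromosome 5.

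The 8 listed names cover 5 chromosome 3 genes and 3 chromosome 5 genes of the family. RefSeq promoter sequence of the GRCm38.p6 assembly was matched for 5 of the 8, all on chromosome 3. The 200 bases upstream of the start are printed below because they hold matches to the interferon-stimulated response element, the kind of site through which these genes are known to be induced. Capitals mark GAAA, any 2 bases and GAAA again, searched on either strand and here always read as the complement. The windows are chr3:142496734-142496933 for Gbp5, chr3:142530136-142530335 for Gbp7, chr3:142559844-142560043 for the first of 2 listed starts of Gbp3, chr3:142594647-142594846 for Gbp2b and chr3:142620463-142620662 for Gbp2, all on the plus strand.
Gbp5: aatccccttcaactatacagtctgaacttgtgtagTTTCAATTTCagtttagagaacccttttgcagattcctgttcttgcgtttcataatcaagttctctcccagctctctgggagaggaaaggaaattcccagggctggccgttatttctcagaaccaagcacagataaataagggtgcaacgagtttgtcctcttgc
Gbp7: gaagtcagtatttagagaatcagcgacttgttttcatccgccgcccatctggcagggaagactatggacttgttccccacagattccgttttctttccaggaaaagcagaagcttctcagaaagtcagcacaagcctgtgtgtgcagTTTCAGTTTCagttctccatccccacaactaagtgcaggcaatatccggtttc
Gbp3: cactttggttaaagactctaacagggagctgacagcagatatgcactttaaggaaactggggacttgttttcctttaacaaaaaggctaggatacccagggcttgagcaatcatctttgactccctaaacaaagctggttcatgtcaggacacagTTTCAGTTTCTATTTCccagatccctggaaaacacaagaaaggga
Gbp2b: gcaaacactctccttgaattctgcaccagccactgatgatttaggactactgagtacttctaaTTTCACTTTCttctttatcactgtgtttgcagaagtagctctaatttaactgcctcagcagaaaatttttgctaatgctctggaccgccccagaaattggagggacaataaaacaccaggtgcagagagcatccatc
Gbp2: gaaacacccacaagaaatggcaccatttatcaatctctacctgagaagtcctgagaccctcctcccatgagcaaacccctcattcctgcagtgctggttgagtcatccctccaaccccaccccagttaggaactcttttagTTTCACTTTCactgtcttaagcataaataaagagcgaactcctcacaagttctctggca

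Each of these 5 windows held the element. It began 165 bases upstream of the start in Gbp5, 137 in Gbp2b, 59 in Gbp2 and 53 in Gbp7, and in Gbp3 a pair of overlapping matches began within 45 bases. The window before the second listed start of Gbp3, at chr3:142560156-142560355, held none. Of 32851 promoter windows of this length in the table, 746 (2.27%) held this motif on either strand. A second motif, the core of a gamma-activated site, was searched as TTC, any 3 bases and GAA, which reads the same on both strands. It was found once in the Gbp5 window and at 2 places in that of Gbp7, without overlapping the response element, and in 1803 (5.49%) of all windows. A match describes the letters only.

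The siRNA target was lower on BRG1 siRNA arrays by all 3 Smarca4 probes, with 54.7%, 65.8% and 66.2% of the control signal left (limma, Benjamini-Hochberg adjusted p over 26258 probes = 0.00181, 0.00455 and 0.00862). Between 60.9% and 70.9% of spots were well above background on BRG1 siRNA arrays, and between 64.8% and 75.3% on control siRNA arrays. The arrays lay on 2 slides: BRG1 siRNA replicates 2 and 3 on 1 slide, and BRG1 siRNA replicate 1 with the 3 control siRNA arrays on the other, so slide and siRNA are partly confounded. Scaling on spike-in probes in place of the 75th percentile of each array gave a median difference over all genes of 0.19 in place of -0.04 on the log2 scale, and a raised share among called genes of 72.3% in place of 42.3%, so every direction given here is relative to that percentile. In bulk RNA, fewer cells of a type and less RNA per cell cannot be told apart.

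Among the 9 family probes, 5 were well above background on all 6 arrays: those of Gbp5, Gbp3, Gbp2b and Gbp2 on chromosome 3 and 1 of the 2 Gbp9 probes on chromosome 5. The probes of Gbp7, Gbp8 and Gbp4 passed the filter on dim probes through the control siRNA arrays alone, and the other Gbp9 probe was dim in both groups. With the siRNA against BRG1, Gbp4 was furthest below its control level, 4.75-fold. Gbp2b and Gbp3 were at 53.5% and 55.3% of theirs, Gbp2 at 68.5% and Gbp9 at 86.1%, while the Gbp5 groups overlapped. In the comparisons that follow, the 3 values of a group are deposited processed signals on replicates 1, 2 and 3, differences are log2 of BRG1 siRNA over control siRNA after scaling each array to its 75th percentile, and levels of different probes are not compared.

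On chromosome 3, the probe of Gbp3 (chr3:142466047-142466106 of mm7, plus strand) gave 836, 803 and 784 on BRG1 siRNA arrays, against 1313, 1651 and 1575 on control siRNA arrays. The groups did not overlap, and the 3 BRG1 siRNA arrays lay close together, with a log2 level of -1.34 ± 0.02 (SD, n = 3) against -0.49 ± 0.09 (SD, n = 3) on control siRNA arrays, both relative to the array's 75th percentile. The difference was -0.85 ± 0.06 (SE), a 1.81-fold lower signal, with a 95% interval from -0.997 to -0.71.

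Gbp2b, which limits growth of intracellular bacteria in mouse macrophages, had a probe at chr3:142511872-142511931 (mm7, plus strand). Its signals were 999, 895 and 861 with BRG1 siRNA and 1390, 2063 and 1924 with control siRNA. Control siRNA replicate 1 was the lowest of its group but still above every BRG1 siRNA array. The level was -1.16 ± 0.05 with BRG1 siRNA and -0.26 ± 0.21 with control siRNA (log2, SD, n = 3 each), and the difference was -0.90 ± 0.11 (SE; 95% interval -1.17 to -0.63), or 1.87-fold lower.

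Gbp2 protects mouse cells against the parasite Toxoplasma gondii, on whose vacuole it gathers. Its probe (chr3:142530694-142530753, mm7, plus strand) had signals of 2075, 1736 and 1620 with BRG1 siRNA and of 2161, 3265 and 2824 with control siRNA. Here BRG1 siRNA replicate 1 and control siRNA replicate 1, which share a slide, came near each other: after scaling they stood at -0.05 and 0.14 on the log2 scale. The groups still did not overlap, and the difference was -0.55 ± 0.12 (SE; 95% interval -0.83 to -0.26), or 1.46-fold lower.

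Control siRNA replicate 1 was the lowest control array for Gbp3, Gbp2b and Gbp2, with scaled log2 levels of -0.58, -0.50 and 0.14. The other two control arrays stood at -0.50 and -0.39 for Gbp3, at -0.18 and -0.11 for Gbp2b and at 0.48 and 0.45 for Gbp2. On the 3 BRG1 siRNA arrays the same genes spanned -1.36 to -1.33, -1.21 to -1.11 and -0.29 to -0.05. Without control siRNA replicate 1 the differences were -0.90, -1.02 and -0.65, and over all 6 omissions of 1 array they ran from -0.90 to -0.81 for Gbp3, from -1.02 to -0.82 for Gbp2b and from -0.65 to -0.48 for Gbp2.

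Gbp5, which in mouse macrophages promotes assembly of the NLRP3 inflammasome, had a probe at chr3:142414754-142414813 (mm7, plus strand). It gave 150.4, 133 and 157 with BRG1 siRNA, against 169, 156 and 160 (159.6) with control siRNA. After scaling, BRG1 siRNA replicates 1 and 3 lay within the range of the control siRNA arrays, and the difference of -0.09 ± 0.12 (SE; 95% interval -0.38 to 0.19) was within the spread between arrays.

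Gbp7, tied in mouse macrophages to assembly of the phagocyte NADPH oxidase, gave 45.8, 23.0 and 66.1 with BRG1 siRNA and 57.3, 58.8 and 103 with control siRNA, from a probe at chr3:142439354-142439413 (mm7, plus strand). It was well above background on 2 of 3 BRG1 siRNA arrays and on all 3 control siRNA arrays, and the groups overlapped. The difference of -0.73 ± 0.45 (SE) had a 95% interval from -1.84 to 0.39, and ran from -1.09 to -0.32 as single arrays were left out.

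**Figure D1:**
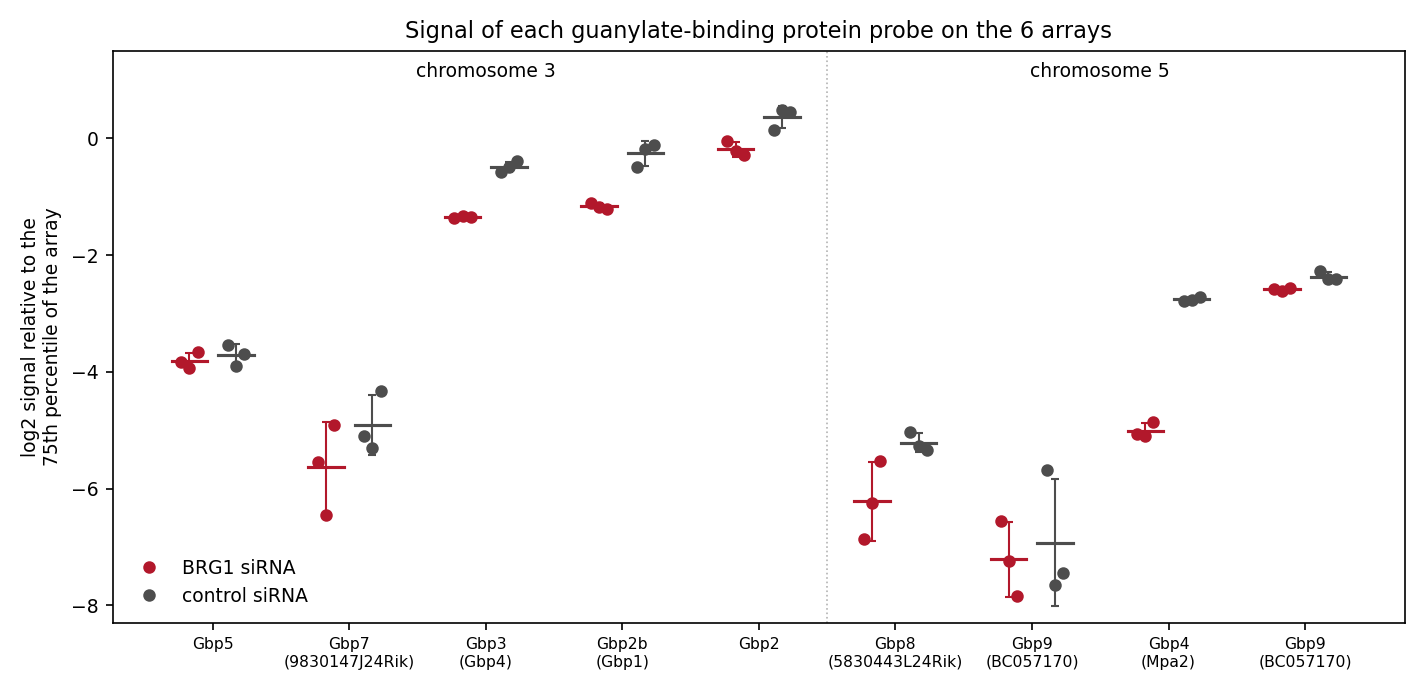
Log2 signal over the array's 75th percentile (vertical axis) for the 9 family probes in chromosome order, with BRG1 siRNA arrays in red to the left of control siRNA arrays in grey. Points are arrays in replicate order, bars the mean and SD (n = 3), and heights may be compared within a probe only; Gbp4 shows the widest gap between groups, with means of -5.01 for BRG1 siRNA and -2.76 for control siRNA.

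On chromosome 5, Gbp4 (chr5:104286256-104286315 of mm7, minus strand) gave signals of 64.3, 59.0 and 68.3 with BRG1 siRNA and of 285, 340 and 314 with control siRNA. The groups lay far apart, and the arrays of each group lay close together. The level was -5.01 ± 0.13 with BRG1 siRNA and -2.76 ± 0.03 with control siRNA (log2, SD, n = 3 each), and the difference was -2.25 ± 0.07 (SE; 95% interval -2.43 to -2.07), or 4.75-fold lower. The probe was well above background on 2 of 3 BRG1 siRNA arrays, with replicate 2 below. Before background subtraction the spot averaged 145 to 156 with BRG1 siRNA and 351 to 401 with control siRNA, over a local background of 53 to 60 with BRG1 siRNA and 53.5 to 58.0 with control siRNA. With normexp, which models the background in place of the scanner's correction and adds an offset of 50, the difference was -1.34, and the shares of these changes in the move were not tested.

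Gbp9 has 2 probes. The one well above background on all 6 arrays, at chr5:104325298-104325357 (mm7, minus strand), gave 359, 331 and 334 with BRG1 siRNA and 404, 437 and 387 with control siRNA. The groups did not overlap, and the difference was -0.22 ± 0.05 (SE; 95% interval -0.35 to -0.08), or 1.16-fold lower. With spike-in scaling it was 0.01. The other probe, placed at 104258499 to 104258741, gave 22.7, 13.4 and 8.61 with BRG1 siRNA and 38.3, 11.6 and 11.8 with control siRNA, and was not well above background on any array. In mm7 the Gbp4 probe lies between these 2 probes, which share the array's name BC057170. Whether both probes report 1 transcript was not tested.

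Gbp8 (chr5:104152090-104152149, mm7, minus strand) gave 18.4, 26.4 and 43.3 with BRG1 siRNA, where it was not well above background on any array, and 59.8, 60.7 and 50.9 with control siRNA, where it was on all 3. Its group mean was at least 1.15-fold lower with BRG1 siRNA, a bound with no allowance for the spread between arrays. The bound takes, for each BRG1 siRNA array, the array's own signal or the dimmest signal counted as well above background, whichever is higher. On BRG1 siRNA replicate 2 that dimmest signal was 60.6, within the range of the control siRNA signals, so at the bound the groups overlapped. The measured mean was -6.22 ± 0.68 with BRG1 siRNA and -5.22 ± 0.16 with control siRNA (log2, SD, n = 3 each). Gbp6, named Mpa2l on the array and outside the listed names, gave 10.2 to 16.5 with BRG1 siRNA and 12.9 to 21.1 with control siRNA and was not well above background on any array, so no difference is given.

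BRG1 siRNA and control siRNA signals were apart for 6 of the 8 tested family probes, which is 6 of all 9, and all 6 were lower with BRG1 siRNA. These 6 include Gbp8 at its measured values, though its groups overlapped at its bound. Of all 26258 tested probes, 23.1% were likewise lower without overlap and 18.5% higher, and 11.0% were called lower and 8.60% raised at an adjusted p under 0.05. Over the 8 tested family probes the median difference was -0.79, with a range from -2.25 to -0.09. With Gbp8 at its bound the median was -0.64, and over all tested probes it was -0.03. These figures describe a family selected on this contrast, and 3 of the 8 probes passed the filter only through the control siRNA arrays. Set against each other, the 10 probes of Gbp genes, each of 60 bases, shared no stretch longer than 8 bases, over 45 pairs. No probe was compared with a transcript, so cross-hybridisation to other transcripts of the family was not tested.

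The size of the differences varied with the processing. With slide as a block, which sets BRG1 siRNA replicate 1 against the 3 control siRNA arrays, the differences were -2.30 for Gbp4, -0.87 for Gbp3, -0.85 for Gbp2b, -0.41 for Gbp2 and -0.21 for Gbp9. Scaling on spike-in probes gave -2.02 for Gbp4, -0.63 for Gbp3, -0.68 for Gbp2b and -0.32 for Gbp2, and turned Gbp5 and Gbp9 to 0.13 and 0.01. Gbp7, dim on 1 BRG1 siRNA array, was at -0.26 with normexp, and no sizes are given for Gbp8, which has only a bound.

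**Figure D2:**
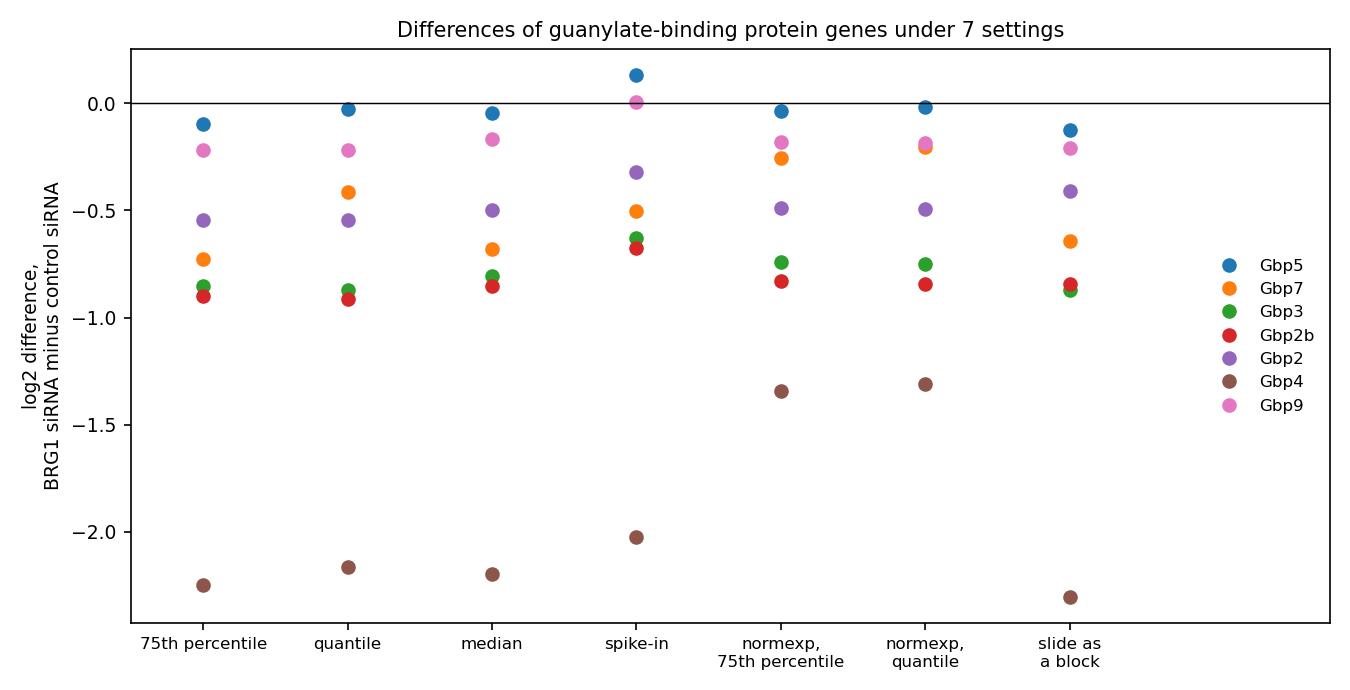
Log2 difference, BRG1 siRNA minus control siRNA (vertical axis), of the 7 family probes well above background on at least 1 BRG1 siRNA array, under 7 ways of scaling, background correction or blocking (horizontal axis), 1 colour a gene. Gbp4 was lowest in each, between -2.30 and -1.31, and Gbp5 and Gbp9 lay above 0 with spike-in scaling.

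Upstream of the family, the interferon-gamma pathway was described from lists of genes outside the family, tested per gene over the 17758 genes with a measured probe, of which 13.4% were called lower and 9.87% raised (limma, adjusted p under 0.05). Of 16 tested genes for interferon-gamma receptor and JAK-STAT signalling, 5 fell and 3 rose, with a median of -0.10 against -0.04 over all genes. Ifngr1, the ligand-binding receptor chain, had signals of 2654, 2505 and 2819 with BRG1 siRNA and of 3342, 4146 and 3468 with control siRNA, and fell by 0.41 ± 0.07 on the log2 scale (SE, limma adjusted p = 0.0124). The second chain, Ifngr2, differed by -0.09 ± 0.05 (adjusted p = 0.288), which did not pass, and was at 0.14 with spike-in scaling.

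Of the JAK kinases, Jak1 and Jak2 passed the test in the other direction. Jak1 gave 5772, 5714 and 5001 with BRG1 siRNA, against 3783, 4334 and 3803 with control siRNA, and rose by 0.51 ± 0.06 (SE, limma adjusted p = 0.00391), and Jak2 rose by 0.28 ± 0.04 (adjusted p = 0.00728). Tyk2, another JAK kinase, named after its value was seen, differed by 0.0028 ± 0.09 (adjusted p = 0.986). Ifnar1, a receptor chain for type I interferon, rose by 0.42 ± 0.06 (adjusted p = 0.00876).

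Socs1, the feedback inhibitor of the JAK kinases, gave 2824, 2658 and 3002 with BRG1 siRNA and 3602, 3986 and 3742 with control siRNA. All 3 BRG1 siRNA arrays were below all control siRNA arrays, and it fell by 0.37 ± 0.07 (SE, limma adjusted p = 0.0180). Ifng, the cytokine itself, was well above background on 1 BRG1 siRNA array and 2 control siRNA arrays and was not tested.

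Of 11 tested interferon regulatory factors and transactivators, 3 fell and 1 rose, with a median of -0.26. Irf1, a factor that acts at interferon-stimulated response elements, gave 11240, 10708 and 11022 with BRG1 siRNA and 18214, 23489 and 21926 with control siRNA, with no overlap. It fell by 0.90 ± 0.06 (SE, limma adjusted p = 0.00147), 1.86-fold. Irf8, a factor of the myeloid lineage, fell by 0.29, while Irf9, the DNA-binding part of the complex that type I interferon activates, rose by 0.38 ± 0.06 (adjusted p = 0.0111). Nlrc5, an activator of MHC class I genes, had no probe under that name.

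Other interferon-inducible GTPases are close relatives of the family in function, and 3 of 7 tested fell and 0 rose, with a median of -0.51. Irgm1, which regulates other GTPases of its kind at host membranes, gave 729, 608 and 603 with BRG1 siRNA and 1351, 1739 and 1644 with control siRNA. It fell by 1.24 ± 0.08 (SE, limma adjusted p = 0.00129), 2.36-fold, with no overlap. Irgm2 fell by 0.51 ± 0.11 (adjusted p = 0.0294), and Tgtp1, which had 102 to 111 on BRG1 siRNA arrays and 395 to 468 on control siRNA arrays, fell by 2.00 ± 0.06 (adjusted p = 0.00044). Igtp, of the same kind as Irgm1, differed by -0.04 ± 0.08 (adjusted p = 0.752) and its groups overlapped.

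Among 28 tested other interferon-gamma response genes, 12 fell and 3 rose, with a median of -0.27. Zbp1, a sensor of unusual nucleic acids, gave 98.8 to 142 with BRG1 siRNA and 380 (380.3) to 471 with control siRNA and fell by 1.80 ± 0.15 (SE, limma adjusted p = 0.0022). Oasl2 and Isg15, both antiviral genes, fell by 1.12 and 1.06. Of the 3 that rose, the chemokine Cxcl11 rose furthest, by 1.29 ± 0.10 (adjusted p = 0.00194). It gave 368 to 387 on BRG1 siRNA arrays and 149 to 177 on control siRNA arrays.

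Guanylate-binding proteins act with other defence proteins. Of 14 tested inflammasome and cell-autonomous defence partners, 5 fell and 0 rose, with a median of -0.27. Nlrc4, which forms an inflammasome in response to bacterial flagellin, fell by 0.63 ± 0.08 (SE, limma adjusted p = 0.00605). Trim21, a cytosolic antibody receptor, fell by 0.39, Ubqln1, a ubiquitin receptor, by 0.33, and Traf6, a ubiquitin ligase drawn to pathogen vacuoles, by 0.26. The ATG8 conjugation machinery is needed to place guanylate-binding proteins on vacuoles in mouse cells. Of its 13 tested genes, 1 fell and 2 rose. Atg10, the enzyme that joins ATG12 to ATG5, rose by 0.66 ± 0.05 (adjusted p = 0.00222). Gabarapl2, an ATG8 protein, rose by 0.22 by its brightest probe. With the mean over its probes it was at 0.13 (limma adjusted p = 0.344), and its call was lost in 11 of 19 alternatives. Becn1, part of a lipid kinase complex, fell by 0.17 but was at 0.052 with spike-in scaling.

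Gbp2, Gbp2b and Gbp5 end in a CAAX box, the signal for prenylation that anchors them to membranes. Of 10 tested genes for prenylation and CAAX processing, 1 fell, Rap1gds1, a chaperone of prenylated small GTPases, by 0.22 ± 0.04 (SE, limma adjusted p = 0.0145). Among 15 tested other members of the dynamin superfamily, whose fold the guanylate-binding proteins share, 0 fell and 1 rose, Dnm2, which pinches off endocytic vesicles, by 0.22 ± 0.04 (adjusted p = 0.0189). Both lists had medians of -0.03 and -0.05, close to that of all genes.

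**Figure D3:**
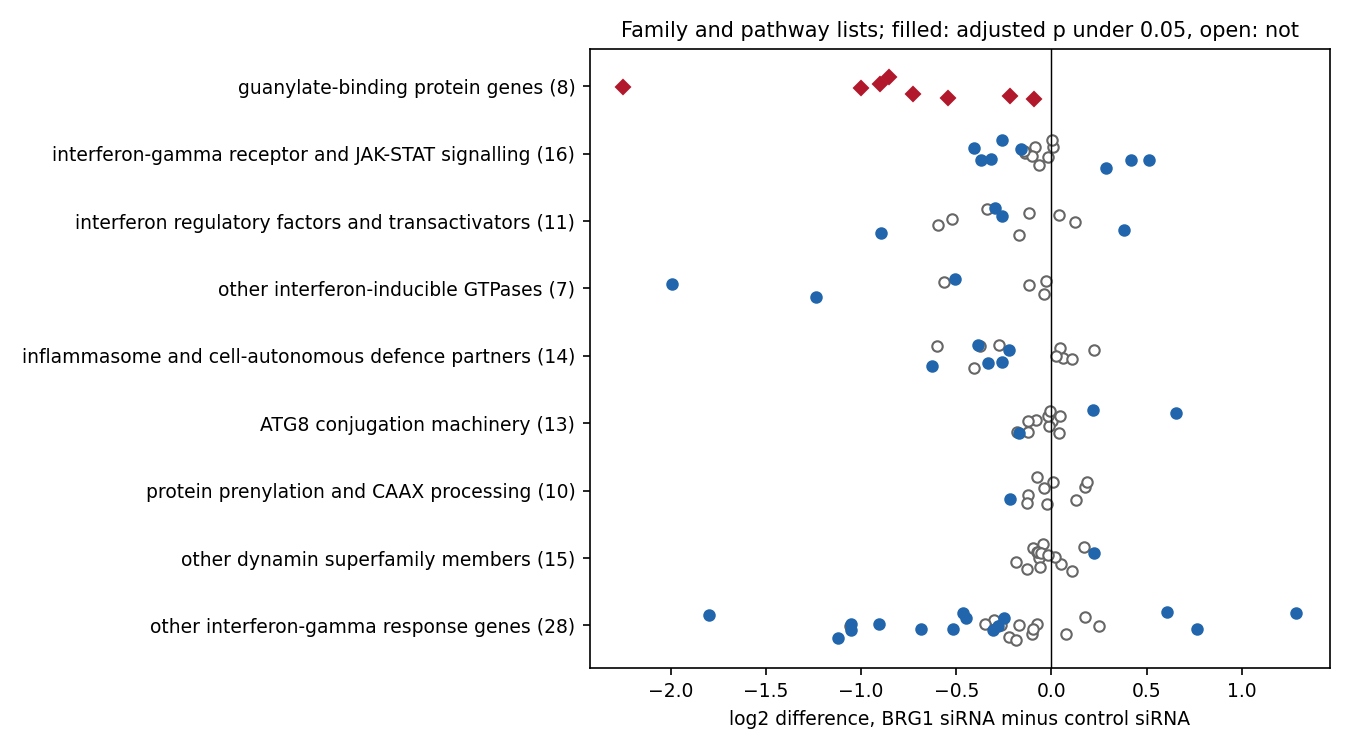
Log2 difference, BRG1 siRNA minus control siRNA (horizontal axis), of the 8 tested family probes (red diamonds, no test) and of each tested gene in 8 pathway lists (circles, filled where adjusted p was under 0.05), with the number tested in brackets; the measured value of Gbp8 is drawn, though only its bound holds. Gbp4 at -2.25, Tgtp1 at -1.996 and Zbp1 at -1.80 lie furthest left, and Cxcl11 at 1.29 furthest right.

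Over the 8 lists, 30 of 114 tested genes fell and 10 rose, with a median of -0.11. The count of 40 became 21 with the slide block, 18 with median scaling, 15 with spike-in scaling, 25 without control siRNA replicate 2 and 23 without control siRNA replicate 3. Among the 33 called genes made up of those the naming rule took from the lists and the called neighbours, 9 kept their call in every alternative other than slide 1 alone: Irf1, Irgm1, Tgtp1, Zbp1, Oasl2, Isg15, Jak1, Atg10 and Cxcl11.

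Markers of other cell types were set beside these groups, and over all tested genes 13.4% were called lower and 9.87% raised. Of 11 tested fibroblast or feeder cell markers, 8 fell and 0 rose, with a median of -0.36, and the summed signal of the 14 on the array, in units of each array's 75th percentile, was 12.2 to 13.2 with BRG1 siRNA and 19.1 to 21.3 with control siRNA. The sum weighs bright genes most: S100a4 gave 6333 to 6660 with BRG1 siRNA and 12347 to 16651 with control siRNA. Fn1 gave 5369 to 6428 and 9192 to 12843. These 2 fell furthest, by 1.09 and 0.81, while Col1a2 (0.0061), Postn (-0.04) and Dcn (-0.19) were tested and not called. Fap was not well above background on any array. Of 8 tested macrophage or blood cell markers, 1 fell and 1 rose, with a median of -0.40 and a summed signal of 2.17 to 2.29 with BRG1 siRNA and 2.62 to 2.66 with control siRNA. The 1 that fell, by 0.47, was Coro1a, the brightest of the list. It gave 1921 to 2075 with BRG1 siRNA and 2452 to 3285 with control siRNA. Cd68 rose by 0.47. Emr1 was not well above background on any array, and Ptprc was on 0 of 3 BRG1 siRNA arrays and 1 of 3 control siRNA arrays. Endothelial markers, of which Cdh5 and Tie1 were not above background on any array, summed to 1.91 to 1.94 with BRG1 siRNA and 1.87 to 1.95 with control siRNA, and 2 of 5 tested fell and 0 rose. Of the 12 ES cell markers, all tested, 1 fell and 3 rose, and they summed to 492 to 509 with BRG1 siRNA and 486 to 491 with control siRNA. The part of any of these in the family's difference was not tested.

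The genes flanking the clusters are described beside the family, which was chosen on this contrast, so no difference between them was tested. The nearest 8 protein-coding genes with a probe on each side of each cluster gave 32 genes, of which 27 were tested. Of these 27, 7 fell and 1 rose, with a median of -0.09, beside 13.4% lower and 9.87% raised over all tested genes. At the chromosome 3 cluster 4 of 13 fell and 1 rose (median -0.11), and at the chromosome 5 cluster 3 of 14 fell and 0 rose (median 0.05).

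Kyat3, which makes kynurenic acid and is the first gene after Gbp2, had signals of 3294, 3213 and 3093 with BRG1 siRNA and of 3473, 4659 and 3887 with control siRNA, and fell by 0.27 ± 0.06 (SE, limma adjusted p = 0.0232). The next gene out, Gtf2b, differed by -0.09 (adjusted p = 0.211), and Pdlim5, the first gene on the other side, by 0.09 (adjusted p = 0.339). Further out on chromosome 3, Tspan5, a tetraspanin, fell by 0.48 ± 0.05 (adjusted p = 0.00325) and Rap1gds1 by 0.22. At the chromosome 5 cluster the first tested genes, Zfp951 before and Lrrc8b after, differed by 0.12 (adjusted p = 0.0810) and -0.18 (adjusted p = 0.476). Lrrc8d, a volume-regulated anion channel subunit, fell by 0.30 ± 0.04 (adjusted p = 0.00855), Zfp326 by 0.35 and Zfp644 by 0.22. The other called neighbours, Pkn2 (-0.19) and Hs2st1 (0.19), as well as Gtf2b, Pdlim5, Zfp951 and Lrrc8b, are named outside the rule, after their values were seen.

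The widest difference among the 8 called neighbours was that of Tspan5. With spike-in scaling Rap1gds1, Zfp644 and Pkn2 lay above 0, at 0.0085, 0.0037 and 0.037. The number called was 1 with the slide block, 0 with median or spike-in scaling, and 3, 2, 5, 2 and 2 without BRG1 siRNA replicates 1 and 2 and control siRNA replicates 1, 2 and 3.

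**Figure D4:**
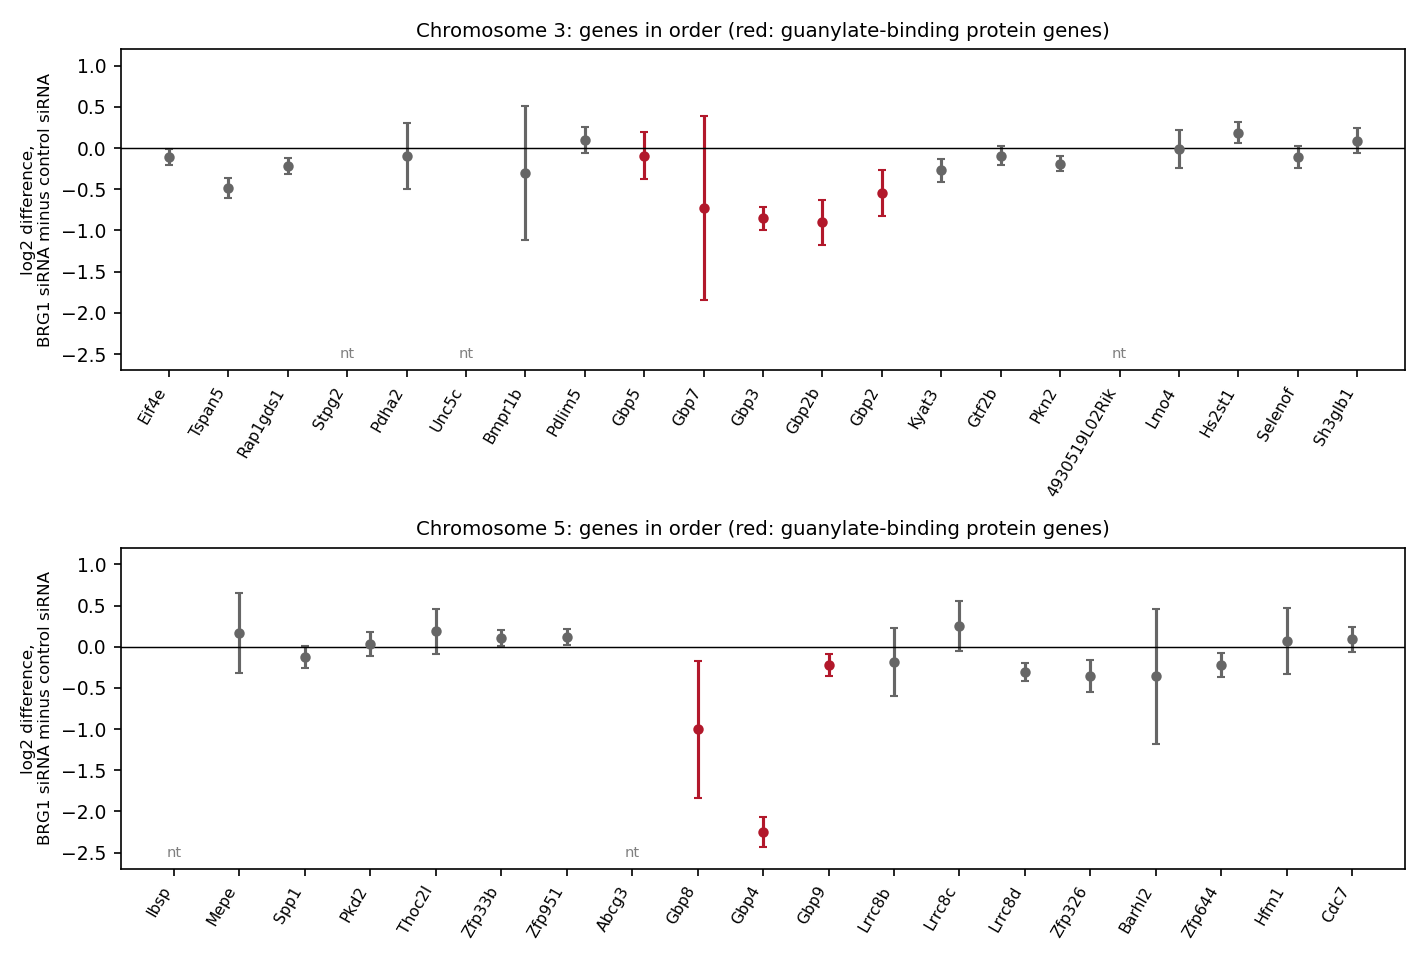
Log2 difference, BRG1 siRNA minus control siRNA (vertical axis, bars the 95% interval of the fit), of the tested guanylate-binding protein genes (red) and the 8 neighbours on each side (grey), in chromosome order along the horizontal axis; nt marks genes not tested, and the value drawn for Gbp8 is measured on BRG1 siRNA signals not above background. Gbp3 at -0.85, Gbp2b at -0.90 and Gbp4 at -2.25 are drawn below the neighbours, whose lowest called value is -0.48. Gbp5 at -0.09 and Gbp9 at -0.22 lie among the neighbours. The family was chosen on this contrast and the neighbours were not, so their relative places were not tested.

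To describe which genes followed the family across arrays, each of 16487 other genes well above background on all 6 arrays was set against the mean log2 level of the 5 family genes bright on all arrays. Wls, the carrier that brings WNT proteins to the cell surface, was most alike, with Pearson r = 0.999 over 6 arrays, and gave 1029, 943 and 951 with BRG1 siRNA and 1277, 1573 and 1466 with control siRNA. TC1410642, for which the file gives only an identifier, Aifm1, a mitochondrial flavoprotein released in cell death, Celf1, an RNA-binding protein, and Irgm1 followed, with r of at least 0.998. The 6 arrays form 2 separated groups for these genes, and 138 genes had r above 0.99 and 1110 above 0.95.

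Of the genes outside the family with a promoter sequence, 11678 were tested, and 258 of them held the response element motif in the 200 bases upstream. Among these 258, 50 fell (19.4%) and 28 rose (10.9%), with a median of -0.06. Over all 11678, 14.3% fell and 10.8% rose, with a median of -0.03, and no difference between these shares was tested.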

How the data were processed

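Per the labels' protocols, RNA was extracted, treated with DNase, purified and labelled with Cy3. The values deposited by the authors are linear spot intensity, extracted with Agilent Feature Extraction 9.5.3.1, per the file headers (9.5 per the submitters' processing notes), background-subtracted within each array, with probe coordinates in mm7. The deposited value table equalled this processed signal (largest difference 0), so it is linear and not centred, and its medians were 167, 162 and 173 for BRG1 siRNA replicates 1, 2 and 3 and 186, 181 and 173 for control siRNA replicates 1, 2 and 3.

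Each array's processed signal was divided by its own 75th percentile over non-control spots (1961 to 2333) and taken to log2. Of 45018 spots, 1639 control spots were left out. A further 387 spots were outliers on at least 1 array and were left out on those arrays only, and spots of a probe were averaged. A probe entered the tests when all 3 arrays of either group had it well above background. Groups were compared with limma 3.58.1 (lmFit, eBayes; R 4.3.3) and Benjamini-Hochberg adjustment, over 26258 probes, or over 17758 genes by their brightest probe. The fit was tested on simulated data. Arrays of a group differed by an SD of 0.193 to 0.263 (log2) and held no copied data.

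The members, gene lists and tests were chosen with earlier results of these data known. Named genes are all family, other Gbp and Smarca4 probes; 8 signalling genes; up to 4 called genes with the largest difference per list; up to 6 called neighbours; and the 5 genes most alike across arrays. The values of 2 genes the rule takes are not reported here. Alternatives were normexp (offset 50), quantile, median and spike-in scaling, other dim-probe filters, slide or replicate number as a block, slide 1 alone, eBayes with trend and robust, the mean over probes, and each array left out. RefSeq tables of GRCm38.p6 gave current names, gene order and promoter sequence.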

Additional observations from a re-analysis of the deposited data

How the results depend on the processing

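The family median of -0.79 comes from genes chosen on this contrast, so its sign supports nothing. It was -0.73 with no filter on dim probes, -0.55 over probes well above background on all 6 arrays, -0.60 with quantile normalization, -0.57 with spike-in scaling, -0.40 and -0.37 with normexp and 75th percentile or quantile scaling, and -0.87 to -0.65 as each array was left out. The -0.60 of 1 Smarca4 probe missed the threshold with slide as a block or slide 1 alone (-0.54 in both) and with spike-in scaling (-0.38), and ran from -0.64 to -0.55 over omitted arrays. The probe at -0.87 missed it with slide 1 alone (-0.90) and passed with the slide block (-0.90) and spike-in scaling (-0.64), and that at -0.59 missed it in all 3. The 40 called pathway genes became 18 with median scaling, 25 with no filter, 21 with the slide block, 2 with slide 1 alone, 15 with spike-in scaling, and 23 to 40 over omitted arrays. The 8 called neighbours became 5 with the mean over probes, 2 with no filter, 1 with the slide block, 0 with median scaling, spike-in scaling or slide 1 alone, and 2 to 8 over omitted arrays.

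Spike-in scaling turned 7 values positive: Gbp9 (0.0084), Gbp5 (0.13), Becn1 (0.052), Ifngr2 (0.14), Pkn2 (0.037), Rap1gds1 (0.0085) and Zfp644 (0.0037). With the replicate number as a block, the family median was -0.79 and the Smarca4 difference -0.60, while 25 pathway genes and 2 neighbours were called, and 1945 genes in all, against 4139 without the block. Deviations of same-numbered arrays correlated at -0.30, 0.11 and 0.14, and those of differently numbered arrays at -0.39 to 0.35. No pairing by number was seen, but with 3 arrays in each group these values cannot settle whether the numbers mark pairs. The cause of these shifts was not tested. Dim probes limit Gbp8, Gbp7 and Gbp4, whose values rest on signals near background on BRG1 siRNA arrays.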
